A study of Mus musculus with 6 samples.

Results

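The 10 genes described are of the bone marrow stroma and of the bone-forming (osteoblast) lineage, out of 22616 genes tested. Of these 22616, 13626 had a gene symbol, and the rest were counted as genes under the name given for their probe. The 10 are Lepr, Cxcl12, Kitl, Dcn, Col1a1, Col1a2, Sparc, Acta2, Ibsp and Bglap. Every probe that is not a control and whose RefSeq accession belongs to a gene of this group was taken, which gave 17 of 55681 probes. The genes were selected on their ratios on the untreated arrays, so values that contain those arrays are described here without a test. The labels name the samples as mouse bone marrow HSCs, that is hematopoietic stem cells. On each of 6 arrays, Cy5 carried a Cdk6-/- sample and Cy3 a wild-type pool of sorted HSCs of the same treatment. Of the arrays, 3 were untreated (with 1 wild-type pool) and 3 were of cells treated with polyI:C, a double-stranded RNA that sets off an interferon response (a second pool). Strain, age, sex, polyI:C dose and time, mice per pool and the kind of Cdk6 allele are not stated in the sources used here. By the design text the 3 arrays of a treatment are biological replicates, which can hold for the Cdk6-/- samples only, since each pool was hybridised 3 times and is 1 sample. The p-values given below therefore hold no spread between wild-type samples.

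HSCs lie in the marrow beside perivascular stromal cells that are known by the leptin receptor and by very high CXCL12, and beside bone-lining cells of the osteoblast lineage. CXCL12 holds stem cells in the marrow through the receptor CXCR4, and stem cell factor, the product of Kitl, keeps them alive through KIT. Osteoblasts build bone from type I collagen with matrix proteins such as osteonectin, bone sialoprotein and osteocalcin. None of these genes is a marker by which HSCs are sorted.

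Promoter stretches are shown for the 4 genes whose last 140 bases before the start site held a searched motif. Those of Lepr, Cxcl12, Sparc and Acta2 held none. Whether the motifs bear on the ratios was not tested. RefSeq windows on GRCm38.p6 were found for 8 of the 10 genes; Dcn and Col1a1 were not matched. In the 250 bases before each start site, on both strands, 4 motifs were searched. These were ACCACA, the core bound by RUNX factors; the CCAAT box; the TATA box, spelled TATAAA; and the CArG box of serum response factor. In that order they were held by 14, 33.8, 12.4 and 1.47% of all 32851 windows. Of the 9 windows of the group (Lepr has 2), 1 held the RUNX core, 4 the CCAAT box, 3 the TATA box and 0 the CArG box. The 140 bases before the start are given 5′ to 3′ with matches in capitals, read on either strand, and no matches overlapped.
Bglap (chr3:88384467-88384606, minus strand): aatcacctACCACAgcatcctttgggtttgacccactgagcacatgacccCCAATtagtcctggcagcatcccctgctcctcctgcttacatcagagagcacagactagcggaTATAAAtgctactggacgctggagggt
Ibsp (chr5:104299147-104299286, plus strand): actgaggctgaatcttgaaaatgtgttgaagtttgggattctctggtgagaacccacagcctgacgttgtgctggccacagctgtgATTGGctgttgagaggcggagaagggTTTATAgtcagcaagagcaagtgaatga
Col1a2 (chr6:4505478-4505617, plus strand): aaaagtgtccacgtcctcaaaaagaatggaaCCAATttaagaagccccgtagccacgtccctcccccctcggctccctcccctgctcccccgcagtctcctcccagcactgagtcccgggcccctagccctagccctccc
Kitl (chr10:100015681-100015820, plus strand): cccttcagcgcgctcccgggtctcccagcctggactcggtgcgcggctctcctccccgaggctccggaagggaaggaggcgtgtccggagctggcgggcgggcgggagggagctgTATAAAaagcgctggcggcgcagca
In the osteocalcin window the RUNX core, the CCAAT box and the TATA box all stood within the printed bases. In Ibsp both matches lay on the opposite strand, so the capitals are the reverse complements. A match is a run of letters and not a measured binding site.

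Ratios are log2 of Cdk6-/- over the wild-type pool, after background correction and loess within each array. Levels are log2 signals of one dye, made comparable between arrays by quantile normalization of the average intensity. A spot is called above background where the scanner software marked it as well above background. On the 6 arrays 47.0 to 76.5% of 59305 spots were above background in Cy5 and 54.4 to 75.6% in Cy3. PolyI:C array 3 stood apart: it had the highest shares in both dyes, lay alone on its slide, and its ratios over all genes had a Pearson r of 0.13 with array 1 of that treatment and 0.22 with array 2, against 0.56 between arrays 1 and 2. Of 16 genes of HSCs and progenitors, 16 were above background on all untreated arrays in Cy5 and in Cy3, with median Cy5 levels of 12.22 to 12.58. The same held for 12 of 12 B cell and 14 of 14 granulocyte markers, the latter with median Cy5 levels of 13.38 to 14.14. Signal of HSC genes therefore does not show how pure the samples were. No array had the dyes swapped, so a dye bias of a probe cannot be told apart from genotype. As these are bulk samples, fewer cells of a type and less RNA per cell cannot be told apart.

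In untreated cells all 10 genes lay below 0 on all 3 arrays, with a median ratio of -1.25 against -0.05 for all tested genes; a ratio below 0 on all 3 untreated arrays was found for 28.2% of all tested genes. After polyI:C their median ratio was -0.11 against -0.02, and 0 of 10 passed the test, as did 0.977% of all tested genes. Only 3 of the 10 were above background in both dyes on all polyI:C arrays. For the others a difference between genotypes could hardly be measured there, so the missing calls do not show that it was gone. In 9 of the 10 genes the pool was lower after polyI:C than untreated, by a change of its mean level between -4.54 and -1.26 log2 units. In each of these 9 the Cdk6-/- level changed by less, between -2.80 and -0.11. That order contains the untreated ratios on which the genes were selected, so nothing is read from it. Lepr in Cdk6-/- samples was above background on 0 of 3 untreated arrays, so a fall there could not be measured. Bglap was higher by 0.12 in the pool and 0.60 in Cdk6-/- samples. Without polyI:C array 3 the changes of Bglap were -0.12 and 0.23. The Cdk6-/- change of Kitl, -0.11 with all arrays, lay between -0.31 and 0.23 when 1 array was left out.

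**Figure D1:**
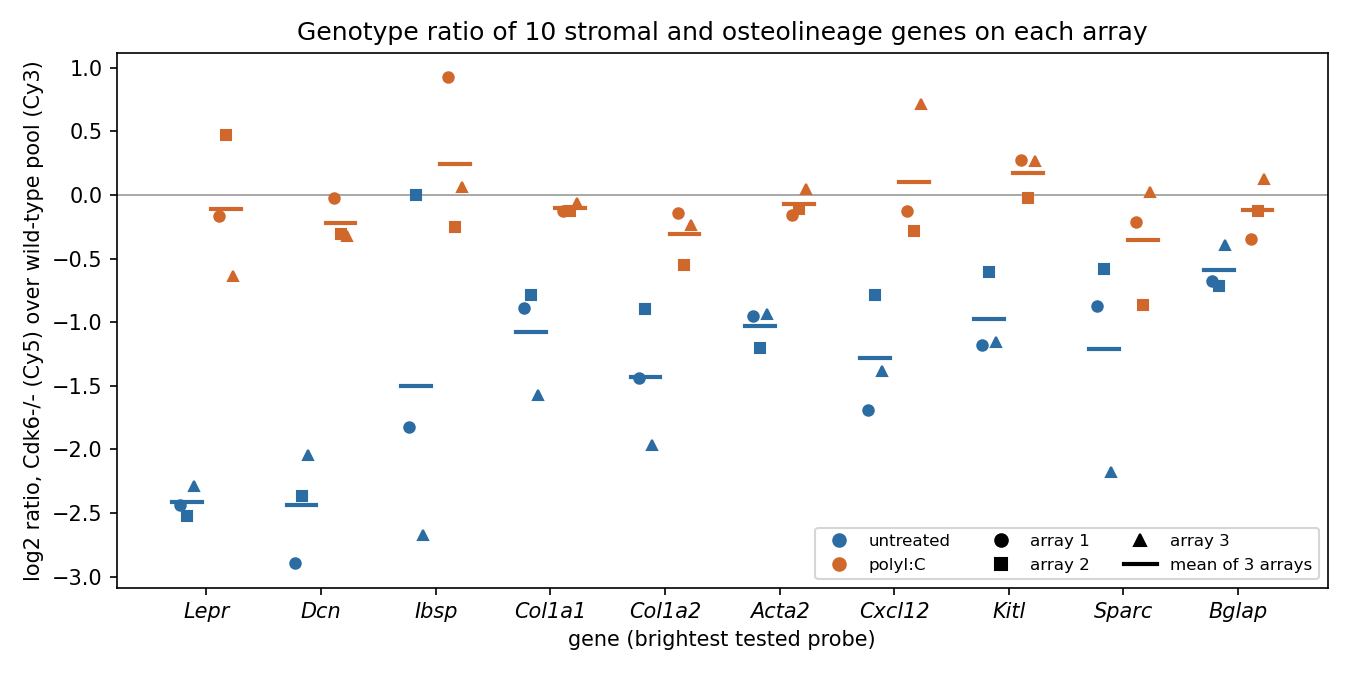
Log2 ratio of Cdk6-/- to the wild-type pool (y axis) for the 10 genes (x axis) on 3 untreated and 3 polyI:C arrays; symbols mark the array, bars the mean of 3 arrays. Untreated ratios lie between -2.89 and -0.00, polyI:C ratios between -0.86 and 0.92.

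Lepr, the leptin receptor that marks perivascular stromal cells, had untreated ratios of -2.44, -2.52 and -2.29 on arrays 1, 2 and 3 (mean -2.41, SD 0.12, n = 3). The pool was at 9.51, 9.62 and 9.42, near the median pool level of all tested genes (9.52 to 9.54). Cdk6-/- samples were at 7.07, 7.09 and 7.13 and above background on 0 of 3 arrays. The groups did not overlap. By the means Lepr signal was 5.33-fold lower in the Cdk6-/- samples than in the pool, with the Cdk6-/- side at background. The untreated ratio was -2.16 with median centring, -2.07 as the mean of the tested probes and -3.60 with processed signals. After polyI:C the pool was at 7.06, 6.75 and 7.02, near the untreated Cdk6-/- level, and was above background on array 3 only. The ratios then were -0.17, 0.47 and -0.64 (mean -0.11, SE 0.21, limma adjusted p = 0.868, n = 3).

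Lepr has 4 probes. The other probe of NM_010704, A_55_P2177910, gave untreated ratios of -1.89, -1.50 and -1.78 (mean -1.72, SD 0.20), so both probes of that transcript were low on every untreated array. The probes of NM_001122899 and NM_146146 did not pass the filter on dim probes, and their untreated means were -0.26 (SD 0.20) and -0.27 (SD 0.22). Levels are not compared between probes.

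Cxcl12, the chemokine that retains HSCs, was bright in both dyes on all 6 arrays. Its untreated ratios were -1.69, -0.79 and -1.38 (mean -1.28, SD 0.46, n = 3), with the pool at 12.81, 12.45 and 12.73 and Cdk6-/- samples at 11.12, 11.66 and 11.34. Every untreated Cdk6-/- value lay below every pool value. After polyI:C the pool was at 9.80, 9.62 and 9.59 and the Cdk6-/- samples at 9.68, 9.33 and 10.30, which overlap. The polyI:C ratio was 0.10 (SE 0.24, limma adjusted p = 0.895, n = 3). The change of the level with polyI:C was -2.99 log2 units in the pool and -1.60 in Cdk6-/- samples. A second probe, A_55_P1966204 for NM_021704, had untreated ratios of -0.58, -0.09 and -1.88 (mean -0.85, SD 0.92), and its pool level changed by -2.57 with polyI:C. It was therefore low in the same direction but with array 2 near 0.

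Kitl, which encodes stem cell factor, was dim. Its untreated ratios of -1.18, -0.60 and -1.15 (mean -0.98, SD 0.33, n = 3) came from pool levels of 8.27, 8.64 and 8.12 and Cdk6-/- levels of 7.09, 8.04 and 6.97, of which only array 2 was above background. After polyI:C both sides lay between 6.96 and 7.51 and were above background on array 3 alone. The polyI:C ratio was 0.17 (SE 0.18, limma adjusted p = 0.735, n = 3).

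Dcn encodes decorin, a small proteoglycan that binds collagen fibrils. Its untreated ratios of -2.89, -2.37 and -2.05 (mean -2.44, SD 0.43, n = 3) were, with those of Lepr, the lowest of the group by their means. The pool was at 9.75, 9.79 and 10.01, against 6.86, 7.42 and 7.97 in Cdk6-/- samples, which were above background on 2 of 3 arrays. After polyI:C the pool was at 6.65, 6.63 and 7.17, a change of -3.04 log2 units, and the Cdk6-/- level changed by -0.82. Both were above background on array 3 only, and the ratio was -0.22 (SE 0.20, limma adjusted p = 0.686, n = 3).

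The chains of type I collagen, the main protein of bone, are encoded by Col1a1 and Col1a2. For Col1a1 the untreated ratios were -0.89, -0.79 and -1.57 (mean -1.08, SD 0.42, n = 3), from pool levels of 10.63, 10.54 and 10.37 and Cdk6-/- levels of 9.74, 9.75 and 8.80. For Col1a2 they were -1.44, -0.90 and -1.97 (mean -1.43, SD 0.54, n = 3), from 11.85, 12.00 and 11.92 in the pool and 10.41, 11.10 and 9.95 in Cdk6-/- samples. In both chains array 3 was the lowest and array 2 the closest to the pool. After polyI:C Col1a1 was above background on array 3 alone, with a change of -2.98 in the pool and -2.0 in Cdk6-/- samples, and a ratio of -0.10 (SE 0.19, limma adjusted p = 0.858, n = 3). Col1a2 stayed above background on all arrays, with a change of -2.03 in the pool and -0.91 in Cdk6-/- samples, and a ratio of -0.31 (SE 0.22, limma adjusted p = 0.59, n = 3).

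Sparc encodes osteonectin, a matrix protein that binds collagen and calcium. Its brightest probe, A_55_P2046812, had untreated ratios of -0.87, -0.58 and -2.18 (mean -1.21, SD 0.85, n = 3), with array 3 far below the other two. The pool was at 12.85, 12.93 and 12.73 and the Cdk6-/- samples at 11.98, 12.35 and 10.55. With polyI:C the level changed by -2.66 in the pool and -1.80 in Cdk6-/- samples, all above background, and the ratio was -0.35 (SE 0.29, limma adjusted p = 0.66, n = 3).

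The 3 Sparc probes disagreed. A_55_P2046807 had untreated ratios of -0.60, -0.98 and -2.21 (mean -1.26, SD 0.84), like the brightest probe. A_55_P2122835, also for NM_009242 and above background on all arrays in both dyes, had ratios of 0.07, 0.42 and 0.36 (mean 0.28, SD 0.19). Its pool level changed by 0.49 with polyI:C, where those of the other Sparc probes changed by -2.66 and -2.25. Which probe follows the Sparc transcript was not tested, as probe sequences were not used here.

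Acta2, smooth muscle actin of vascular and pericyte-like cells, was read by a probe printed on 10 spots. Its untreated ratios were close together, at -0.95, -1.21 and -0.93 (mean -1.03, SD 0.15, n = 3), with the pool at 8.93, 9.06 and 8.86 and Cdk6-/- samples at 7.98, 7.85 and 7.92, all above background. With polyI:C the level changed by -1.70 in the pool and -0.74 in Cdk6-/- samples. Signal was then above background on array 3 only, and the ratio was -0.07 (SE 0.16, limma adjusted p = 0.889, n = 3).

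Ibsp encodes bone sialoprotein, made by osteoblasts that lay down mineral. It varied most among Cdk6-/- samples. The untreated ratios of its brightest probe were -1.82, -0.00 and -2.67 (mean -1.50, SD 1.36, n = 3), with Cdk6-/- levels of 9.14, 11.33 and 8.56 against 10.96, 11.33 and 11.23 in the pool. Array 2 thus matched the pool while arrays 1 and 3 lay below it. Its second probe, A_55_P2075485, had ratios of -2.16, -1.05 and -1.49 (mean -1.57, SD 0.56), so there array 2 lay below the pool as well. After polyI:C the brightest probe was above background on none of the arrays in either dye. Signal was at least 20.5-fold lower in the treated than in the untreated pool and at least 6.5-fold lower in treated than in untreated Cdk6-/- samples, or at least 3.67-fold without untreated array 2. The polyI:C ratio of 0.25 (SE 0.41, limma adjusted p = 0.842, n = 3) compares signals that were both at background.

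Bglap encodes osteocalcin, a late osteoblast product, and showed the smallest ratio of the group. Its untreated ratios were -0.67, -0.71 and -0.39 (mean -0.59, SD 0.17, n = 3), with the pool at 8.03, 7.74 and 7.87 and Cdk6-/- levels of 7.35, 7.02 and 7.47, above background on array 3 only. After polyI:C its levels were 7.70, 7.81 and 8.50 in the pool and 7.35, 7.68 and 8.62 in Cdk6-/- samples, with a ratio of -0.12 (SE 0.17, limma adjusted p = 0.821, n = 3). Array 3 was the highest in both dyes, and without it the pool was lower than untreated (a change of -0.12). Bglap2 and Bglap3 are near-identical neighbours, so how signal is shared between the 3 copies is uncertain. Bglap2 had untreated ratios of -2.30, -0.07 and -1.82, and the brightest probe of Bglap3 -1.27, -1.10 and -1.76. Array 2 was thus close to 0 for Bglap2 as it was for the brightest Ibsp probe.

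**Figure D2:**
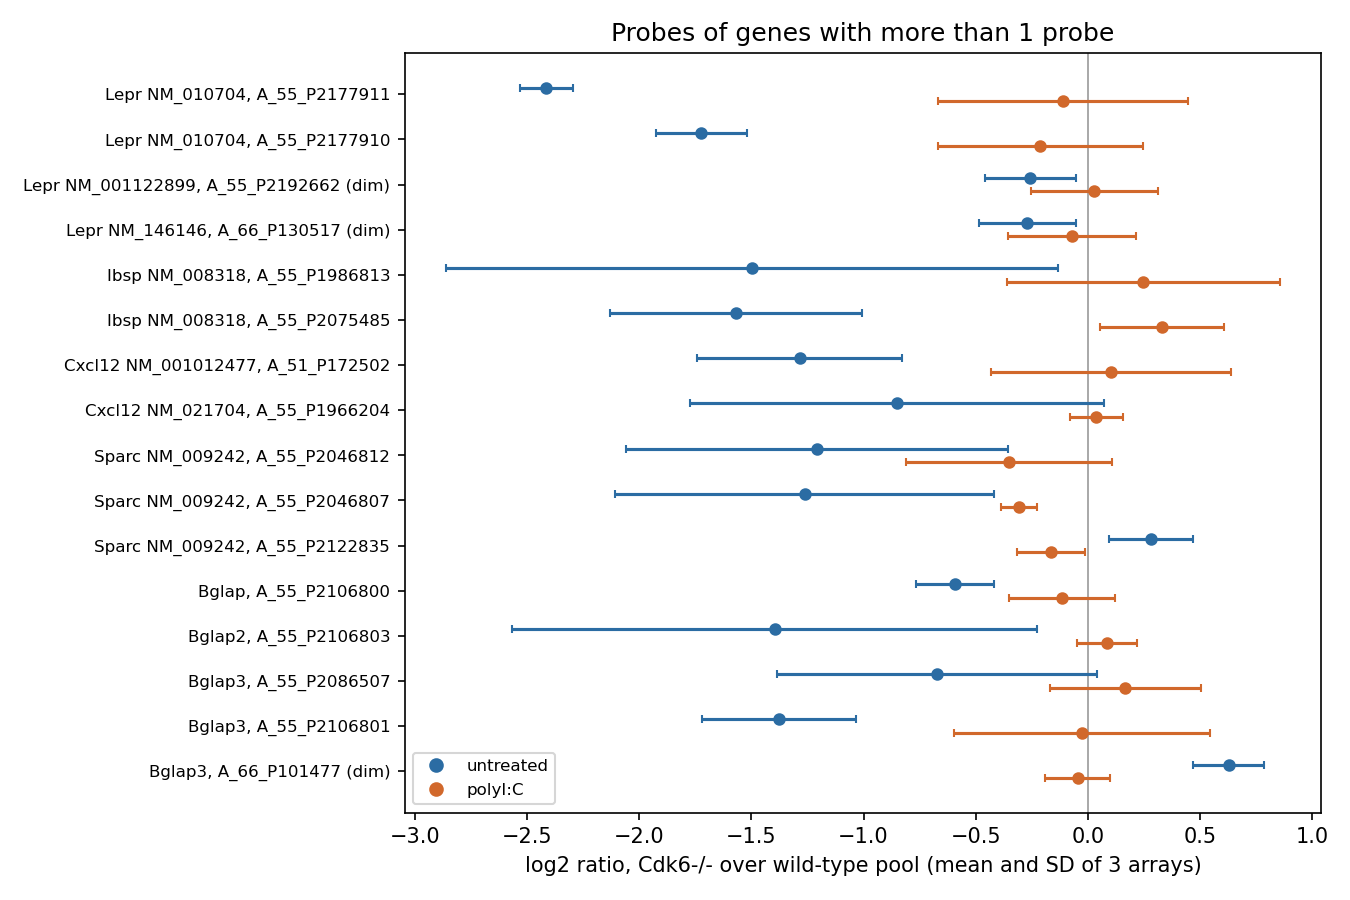
Mean and SD over 3 arrays of the log2 ratio (x axis) for each probe of Lepr, Ibsp, Cxcl12 and Sparc and of the 3 osteocalcin copies; dim probes did not pass the filter. The Sparc probe at 0.28 untreated is the only tested probe shown whose untreated mean lies above 0.

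Among the arrays, untreated array 3 had the lowest median over the 10 genes, at -1.77, against -1.31 on array 1 and -0.79 on array 2. The polyI:C arrays had medians of -0.13, -0.19 and 0.04. For 8 of the 10 genes all untreated ratios lay below all polyI:C ratios (14.4% of all tested genes did), the exceptions being Ibsp and Sparc. That count contains the untreated values by which the group was chosen, so nothing is read from it. The difference of the ratio between treatments, which contains the untreated values too, had a median of 1.14 over the group. On slides 1 and 2, which held both treatments, that difference was 1.43 and 0.58, and on slide 2 it was below 0 for Ibsp (-0.25) and Sparc (-0.28).

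The mean ratio after polyI:C does not contain the untreated ratios and was tested in limma over all 22616 genes. The test does not stand wholly apart from the untreated arrays, since they share its estimate of the spread and 6 of the 10 genes passed the filter through them only. None of the 10 passed at an adjusted p of 0.05 (0 at an unadjusted p under 0.05), where 0.977% of all genes were called, 0.65% lower and 0.327% higher. The 95% intervals of the 10 ratios all included 0; that of Cxcl12 ran from -0.43 to 0.63, of Col1a2 from -0.79 to 0.17 and of Sparc from -1.0 to 0.30. These 3 genes were above background in both dyes on all polyI:C arrays. For the 7 other genes at least 1 dye was at background on polyI:C arrays 1 and 2, so their ratio there has no measured level on both sides. In the pool, 6 of the 10 genes were above background on all untreated arrays but not on polyI:C arrays 1 and 2, which was so for 4.73% of the genes above background in the untreated pool. That count contains untreated signals on which the genes were selected, and nothing is read from it.

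**Figure D3:**
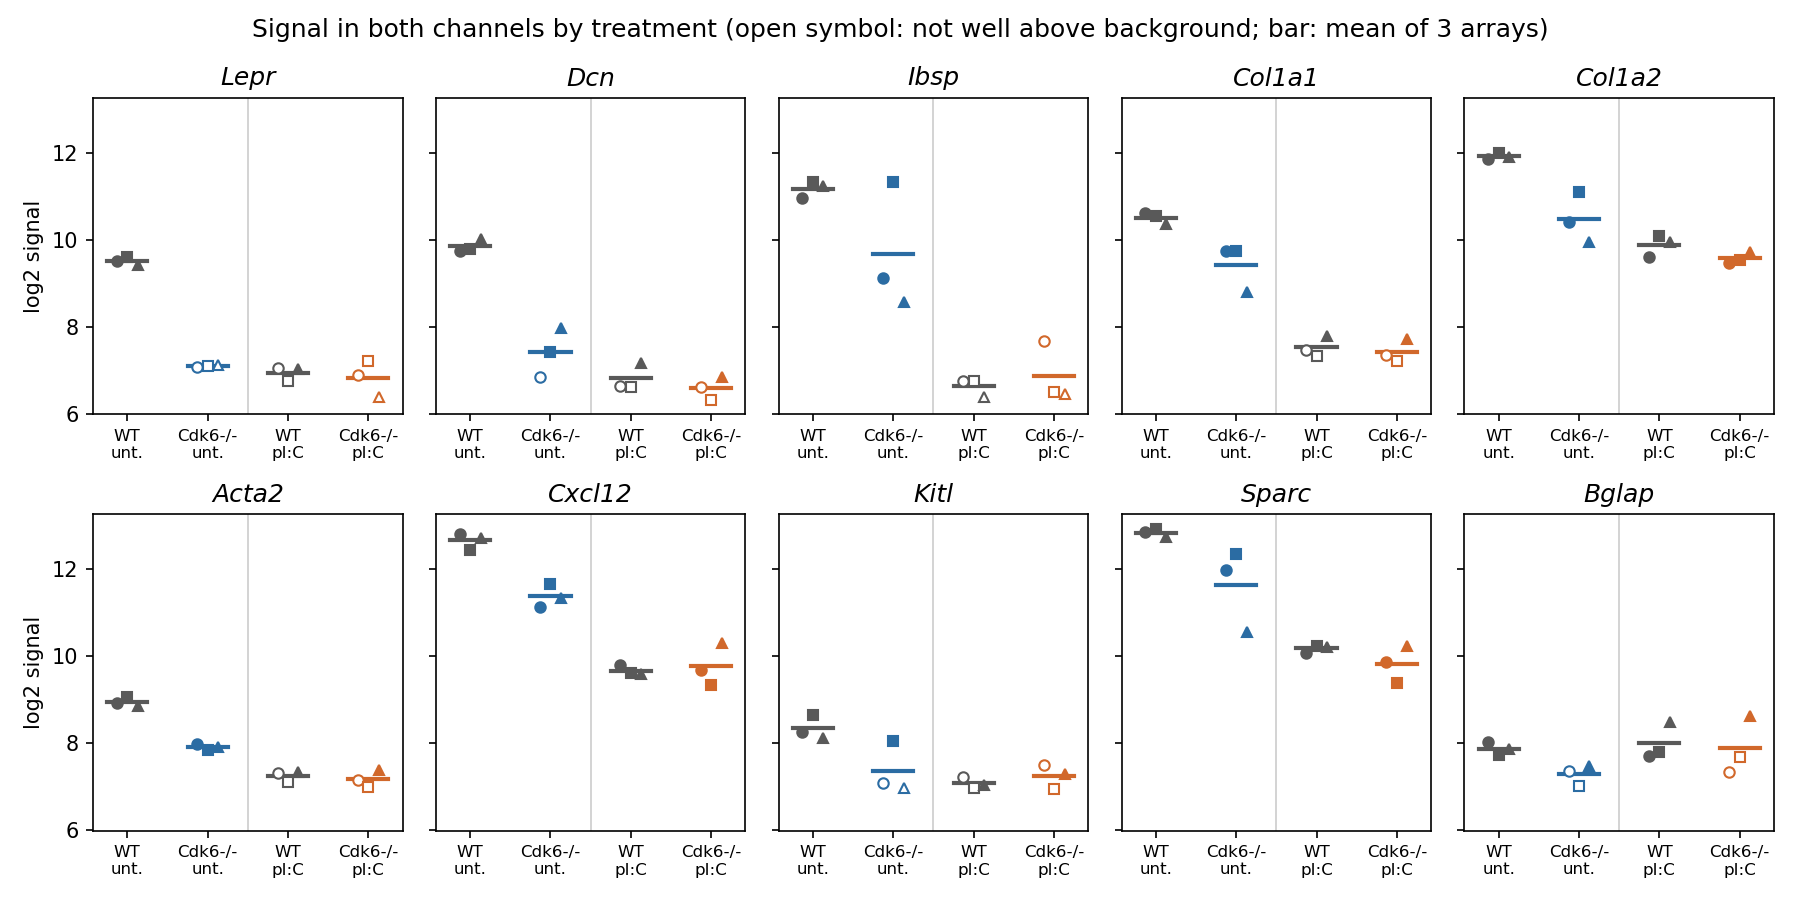
Log2 signal (y axis) of each gene in the wild-type pool (WT, Cy3) and in Cdk6-/- samples (Cy5), untreated (unt.) and after polyI:C (pI:C); symbols are arrays, open ones not well above background, and bars are means of 3 arrays. Untreated pool levels are the highest of the 4 for every gene but Bglap.

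Other genes of the same cells were drawn from 4 lists: stromal niche cells, the osteoblast lineage, collagens and fibrous matrix, and smooth muscle and pericytes. Of 90 genes listed, 88 were on the array and 54 were tested. A gene could pass the filter on dim probes through the pool alone. Of the 54 genes, 52 were above background on all untreated arrays in the pool and 30 in Cdk6-/- samples. Over all 22616 genes these numbers were 21268 and 18447. The untreated counts of these lists therefore do not stand apart from how bright the pool was. In untreated cells 19 of the 54 were lower and 2 were higher in limma (adjusted p under 0.05), against 13% over all genes (9.95% lower and 3.05% higher), and their median was -0.38. Median centring in place of loess gave 17 lower and 6 higher, with all genes then at a median of 0.30 and 6198 of 22616 called. With no filter on dim probes, 18 of 88 list genes were lower and 3 higher, with 2980 of 36797 genes called over all. Without untreated array 3 the counts were 9 lower and 1 higher of 55 tested, with 1672 of 23134 genes called over all.

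Among 15 tested stromal niche genes, 5 were lower and 1 was higher, with a median of -0.71. Lpl, lipoprotein lipase, was lower at -1.81 (SE 0.28, limma adjusted p = 0.00367) and alike on all untreated arrays (-1.70, -1.76 and -1.96). Adiponectin, Adipoq, which LepR+ stromal cells make, was at -1.54 (SE 0.35, adjusted p = 0.0185), and on single arrays at -0.53, -1.31 and -2.79. Ebf1, a transcription factor of both stromal and B cells, was at -1.45 (SE 0.38, adjusted p = 0.0313), and Bmp4, a growth factor of bone, at -1.09 (SE 0.29, adjusted p = 0.0395). The higher gene, named after its value was seen, was Angpt1 at 0.59 (SE 0.16, adjusted p = 0.0417), a ligand of TIE2 that blood cells make as well. Pdgfra, Foxc1, Nes, Il7 and Prrx1 were among the genes of this list that did not pass the filter on dim probes.

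The osteoblast list had 9 tested genes of 23, with 3 lower, 0 higher and a median of -0.17. Alpl, the alkaline phosphatase of mineralizing cells, was lower at -1.41 (SE 0.24, limma adjusted p = 0.00541). Bglap3 was at -1.38 by its brightest probe (SE 0.23, limma adjusted p = 0.0054) and Bglap2 at -1.40 (SE 0.34, limma adjusted p = 0.0247). The master regulator Runx2, which some blood cells also express, was at 0.84 and did not pass (adjusted p = 0.0788). Sp7, and late osteoblast and osteocyte genes such as Dmp1, Mepe and Sost, were among the 14 that did not pass the filter on dim probes.

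Of 21 tested matrix genes, 10 were lower and 1 higher, with a median of -0.74. Col6a2, a chain of the microfibrillar type VI collagen, was lower at -2.37 (SE 0.22, limma adjusted p = 0.000548), close to Dcn. Fibronectin, Fn1, was at -1.61 (SE 0.30, adjusted p = 0.00794), Col3a1 at -1.41 (SE 0.31, adjusted p = 0.0162) and the calcification inhibitor Mgp at -1.36 (SE 0.24, adjusted p = 0.00688). The higher gene, named after its value was seen, was the basement membrane collagen Col4a2 at 0.76 (SE 0.18, adjusted p = 0.0224). Of 9 smooth muscle and pericyte genes, 1 was lower, the pericyte proteoglycan Cspg4, at least 1.86-fold (adjusted p = 0.0175), and the median was -0.25.

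Single arrays decided several of these calls. Without untreated array 3, Ebf1 was at -1.23 (limma adjusted p = 0.158), Adipoq at -0.92 (0.0788 adjusted), Bmp4 at -0.90 (0.18 adjusted), Bglap2 at -1.19 (0.135 adjusted), Col3a1 at -1.15 (0.103 adjusted) and Cspg4 at -0.78 (0.102 adjusted). Without untreated array 1, Ebf1 (-1.01, adjusted p = 0.18), Bglap2 (-0.95, adjusted p = 0.147) and Cspg4 (-0.82, adjusted p = 0.0975) did not pass, and without array 2, Adipoq (-1.66, adjusted p = 0.0505), Bmp4 (-0.90, adjusted p = 0.165) and Col3a1 (-1.17, adjusted p = 0.0881) did not. Without polyI:C array 3, Ebf1 (adjusted p = 0.0574) and Bmp4 (adjusted p = 0.0509) missed the threshold. Of the higher genes, Angpt1 was at 0.49 without untreated array 3 (adjusted p = 0.171), and Col4a2 at 0.58 without array 2 (adjusted p = 0.123). The calls of Lpl, Alpl, Bglap3, Col6a2, Fn1 and Mgp were kept without any 1 array. Of these, Alpl, Col6a2 and Mgp were above background in Cdk6-/- samples on only 1 of 3 untreated arrays. Their ratios thus set the pool against signal mostly at background. The Bglap3 call is that of its brightest probe, and it did not pass with processed signals (-1.36, limma adjusted p = 0.0979). With slide as a fixed block, Mgp (-1.24, adjusted p = 0.0557), Adipoq (-1.73, adjusted p = 0.0735), Bglap2 (-1.13, adjusted p = 0.0876), Col3a1 (-1.19, adjusted p = 0.0815), Angpt1 (0.54, adjusted p = 0.114) and Col4a2 (0.84, adjusted p = 0.0568) did not pass.

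After polyI:C 1 of the 54 genes passed, the osteopontin gene Spp1, with ratios of 0.99, 1.27 and 1.26 (mean 1.17, SE 0.16, limma adjusted p = 0.0138). Osteopontin is made by bone cells and also by macrophages and other blood cells. Spp1 was at -0.17 in untreated cells. It missed the threshold when polyI:C array 1 was left out (1.26, adjusted p = 0.126), or array 2 (1.12, adjusted p = 0.137). Over all genes only 2 of 23520 and 21 of 23085 were then called. The median of the 54 genes was 0.08.

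**Figure D4:**
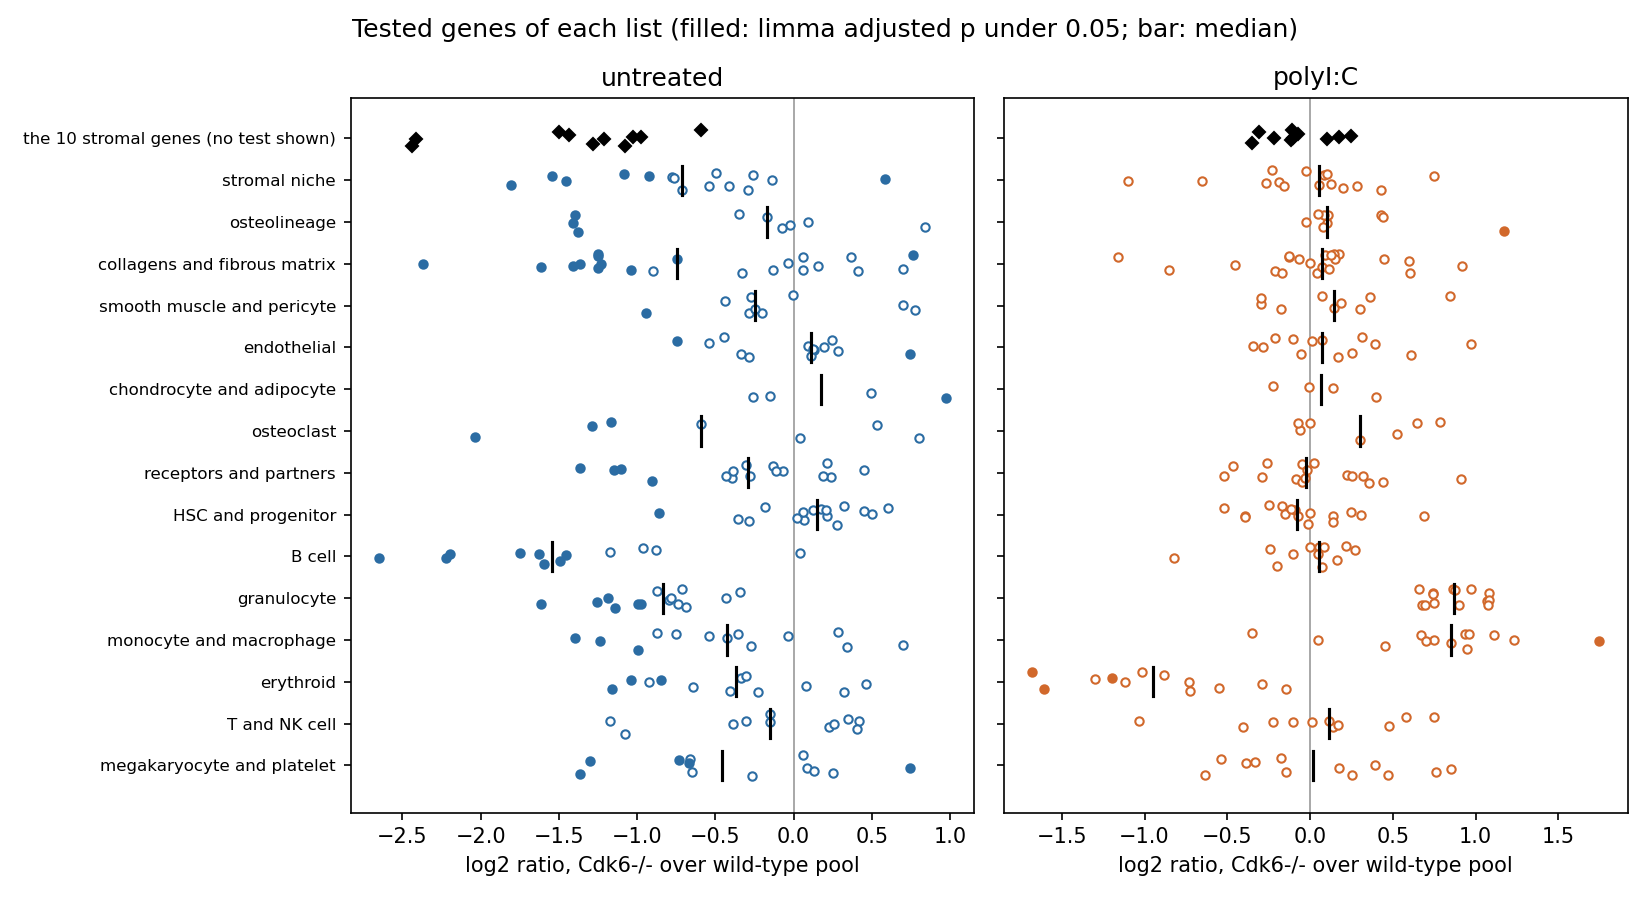
Log2 ratio (x axis) of tested genes of each list (rows), untreated and after polyI:C; filled circles passed limma's adjusted p of 0.05 and bars are medians. The 10 stromal genes lie from -2.44 to -0.59 untreated and from -0.35 to 0.25 after polyI:C.

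Receptors and partners of the 10 proteins were tested for 16 of 21 genes, of which 4 were lower in untreated Cdk6-/- cells, 0 were higher, and the median was -0.29. Cxcr4, the CXCL12 receptor of HSCs, was lower at -1.04, -1.14 and -1.12 (mean -1.10, SE 0.17, limma adjusted p = 0.00391), but at -0.12 with median centring (adjusted p = 0.679). Kit, the receptor of stem cell factor, was at 0.45 and did not pass (adjusted p = 0.258). The integrin chain Itgb3, which binds osteopontin and bone sialoprotein, was lower at -1.37 (SE 0.20, adjusted p = 0.00279), and the collagen-binding integrin Itga1 at least 1.45-fold (adjusted p = 0.00335). With no filter on dim probes Itga1 was at -0.35 (adjusted p = 0.412). Egfr was at -0.91 (SE 0.17, adjusted p = 0.00926), but did not pass with median centring (-0.57, adjusted p = 0.057) or when untreated array 2 was left out (-0.82, adjusted p = 0.05). After polyI:C 0 of the 16 passed in limma, with Cxcr4 at 0.22 and Kit at -0.52.

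Bone is resorbed by osteoclasts, which are of blood origin. Of 7 tested osteoclast genes 3 were lower in untreated Cdk6-/- cells: the collagenolytic protease Ctsk at -2.03 (SE 0.24, limma adjusted p = 0.00114), the acid phosphatase Acp5 at -1.29 (SE 0.19, adjusted p = 0.00311) and Mmp9, which neutrophils make as well, at -1.17 (SE 0.25, adjusted p = 0.0151). Mmp9 did not pass when untreated array 1 (-1.17, adjusted p = 0.0662) or 3 (-0.90, adjusted p = 0.0977) was left out, nor with median centring (-0.67, adjusted p = 0.0655).

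On the untreated arrays markers of several blood lineages were low beside the stromal genes. In untreated cells 8 of 12 B cell markers were lower (median -1.54; -1.50, -1.16 and -2.23 on arrays 1, 2 and 3), as were 6 of 14 granulocyte markers (median -0.84; -0.78, -0.31 and -1.62), and 3 of 13 monocyte and macrophage markers (median -0.42). Array 3 was the lowest for B cells and granulocytes, as it was for the 10 genes. Among the called granulocyte genes, S100a8 (-0.09, limma adjusted p = 0.823), Retnlg (-0.15, adjusted p = 0.717) and Mmp8 (-0.43, adjusted p = 0.206) did not pass with median centring. After polyI:C the medians were 0.05 for B cell, 0.87 for granulocyte and 0.85 for monocyte and macrophage markers, against -0.11 for the 10 genes. The median pool level of B cell markers was 10.78 to 11.09 untreated and 7.65 to 7.91 after polyI:C, and that of the 10 genes 10.17 to 10.19 and 7.22 to 7.56. Genes of HSCs and progenitors had a median of 0.15 untreated, with 1 of 16 lower, Cd48, which is low on HSCs and high on more mature progenitors (-0.86, SE 0.24, limma adjusted p = 0.0433). Cd48 missed the threshold when untreated array 1 (-0.92, adjusted p = 0.112), untreated array 3 (-0.48, adjusted p = 0.225) or any 1 polyI:C array was left out. The part of other cell types in the ratios of the 10 genes was not tested.

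The genes whose ratios over the 6 arrays lay closest to the per-array median of the 10 were Gm10865 (root mean square difference 0.15), Cyp27b1 (0.17), 4930583K01Rik (0.19), Sfn (0.19) and Stx11 (0.21). Closest to Dcn alone were Nlrp12 (0.45), the matrix protein gene Fbln2 (0.48), Myo1e (0.52), Kng2 (0.53) and Dock4 (0.53). Fbln2, for example, had untreated ratios of -2.69, -2.13 and -0.94 and polyI:C ratios of -0.13, -0.16 and -0.43.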

How the data were processed

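Agilent two-colour arrays were read with Feature Extraction 11.5.1.1 on an mm9 design, per the file headers. The deposited scanner files give the intensity of each spot and its background (medians), processed signals, a log10 ratio, and flags (other) set by the software, per the file headers. The authors' deposited value table is in log2; against log2 of the processed Cy5 signal over Cy3 its largest difference was 2.52e-06, and it was used only to check direction (column medians -0.04 to 0.22). RNA was amplified by whole transcriptome amplification and dyed with a platinum label, per the labels' protocols.

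Signals were corrected with normexp (offset 50) and loess, with limma 3.58.1 run under R 4.3.3 (and statmod 1.5.0 for slide blocks). Control and outlying spots (0.657%) were left out and spots of a probe averaged. Probes above background in a dye on all 3 arrays of a treatment were kept (31782, with 23899 left out as dim). A gene was represented by its brightest kept probe, which gave 22616 genes. Of these, 13626 had a symbol, and the rest were kept under the name given for their probe. Shares of all genes are over this mixed set. Of 23839 RefSeq accessions on the probes 22244 were matched to symbols on GRCm38.p6. All 10 genes passed the filter, 6 of them through untreated arrays only, with 15 of their 17 probes.

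One limma fit of 6 arrays (a mean per treatment, 4 residual degrees of freedom) gave ratios and standard errors (SE); p-values were adjusted by Benjamini and Hochberg over all genes. SD is over 3 arrays, and for pools technical. P-values hold the spread between the arrays of a group, and 3 against 3 allow no exact permutation p under 0.1. Array numbers follow deposition order. Folds written "at least" set the brighter mean against, per array, the higher of the dim signal and the lowest signal above background. Bmp4 had no usable spot on polyI:C array 3. A run of the fit on simulated ratios checked only that known changes were recovered on average. Its noise was independent between arrays, with no slide effect, shared pool or background floor. It does not show how reliable the calls given here are.

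Genes and 15 lists were chosen with earlier results of these data known. Named were all 10 genes, up to 4 list genes per list and treatment with the largest called ratios (up to 10 after polyI:C for the stromal lists), and the 5 genes nearest to the group's median and to Dcn. Alternatives were other normalizations, offsets, filters, probe summaries, slide blocks and leaving out arrays; leaving arrays out of level changes and at-least folds was added after seeing the data.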

Additional observations from a re-analysis of the deposited data

Results flagged for a closer look

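A pair of probes had opposite signs on every array in the 2 treatments; neither difference was tested. The second Ibsp probe, A_55_P2075485, was below 0 on all untreated arrays (-2.16, -1.05 and -1.49) and above 0 on all polyI:C arrays (0.18, 0.16 and 0.65), a difference of 1.90, and after polyI:C it was above background on array 3 only. The Sparc probe A_55_P2122835 was above 0 untreated (0.07, 0.42 and 0.36) and below 0 after polyI:C (-0.34, -0.07 and -0.09), a difference of -0.45, and was above background throughout.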

How the results depend on the processing

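All 10 genes stayed below 0 in untreated cells under each alternative that tested them, and 0 of them passed after polyI:C under any; only 4 were above background on all 6 arrays. The median ratio after polyI:C was -0.24 with processed signals. The median change of the Cdk6-/- level with polyI:C was -0.86, and -1.70 with processed signals or -1.26 among genes above background on all 6 arrays. Of 54 stromal list genes 21 were called untreated, but 12 with processed signals, 11 from untreated arrays alone and 12 with slide as a fixed block. Over all 22616 genes 2939 were called, and 1963, 1763 and 2013 in those settings. With only genes above background on all 6 arrays, 9 of 32 list genes and 2286 of 19600 genes over all were called. With no filter on dim probes, 21 of 88 list genes and 2980 of 36797 genes over all were called. Without 1 array 10 to 19 list genes were called, of 51 to 56 tested, and 1419 to 3420 genes over all. After polyI:C 1 was called, but 8 with median centring (2 lower, 6 higher), 2 with the slide block, and 0 to 2 without 1 array. Over all 22616 genes 221 were called after polyI:C, 2578 with median centring and 189 with the slide block. Without polyI:C array 1 or 2, where 0 list genes were called, 2 of 23520 and 21 of 23085 genes were called over all. Without arrays 3 of both groups, chosen after seeing the data, 7 were called untreated and 0 after polyI:C. Over all 23140 genes 1719 and 0 were then called. No called value changed sign. Ratios after polyI:C that were not called did: leaving out 1 array gave -0.40 to 0.15 for Lepr, -0.20 to 0.29 for Cxcl12, -0.092 to 0.49 for Ibsp and -0.24 to 0.0001 for Bglap. Without arrays 3 of both groups Lepr was at 0.15 and Cxcl12 at -0.20, and with processed signals Kitl was at -0.02. The cause was not tested. No paired analysis was possible because the titles give no replicate numbers shared between the treatments. Signal at background after polyI:C limits the comparison of genotypes there.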

Other observations

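Endothelial genes, which like the stroma line the marrow, were tested for 13 of 15 and had a median ratio of 0.11 untreated, with Vwf higher at 0.75 (SE 0.18, limma adjusted p = 0.0263) and Tek lower at -0.75 (SE 0.22, adjusted p = 0.0487); 0 passed after polyI:C. Both Vwf and Tek are also made by blood cells, and both calls ended without any 1 untreated array. Of 4 tested cartilage and fat genes, Chad was higher untreated at 0.97 (SE 0.21, adjusted p = 0.0141), a call that ended without any 1 untreated array.

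Untreated megakaryocyte genes were lower in 4 of 12 and higher in 1, erythroid genes lower in 3 of 12, and 0 of 11 T and NK cell genes passed. After polyI:C erythroid genes were lower in 3 of 12. Of these, Klf1 and Rhag did not pass when any 1 polyI:C array was left out, nor did Car1 without polyI:C array 1 (adjusted p = 0.152) or 3 (adjusted p = 0.0529). In the same arrays 1 of 13 monocyte and macrophage genes was higher, Marco at 1.75 (adjusted p = 0.0291), a call that ended without any 1 polyI:C array.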
